A study of Mus musculus with 15 samples.

Results

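The myelin protein genes described here are Mbp, Mog, Mag, Mobp, Cnp, Cldn11, Opalin, Aspa and Ermn, taken by symbol as 9 of the 26145 genes counted by single cell RNA sequencing of the mouse prefrontal cortex (PFC). All mice were male C57BL/6N. The 12 libraries of adult mice (P60 in the study, 8 to 10 weeks in the labels) were of mice with intravenous self-administration of saline or cocaine, at the end of the maintenance phase, after 48 h of withdrawal or after 15 days of withdrawal, with 2 libraries in each of the 6 groups. The other 3 libraries were of mice at P21 (3 weeks), which had no self-administration. Each P60 library held the pooled tissue of a pair of mice. The methods give 4 mice for P21, too few for 3 separate pools of that size, so the P21 libraries may not be independent. The labels also name NAc (nucleus accumbens) as tissue, whereas the titles name the PFC.

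Oligodendrocytes arise from dividing precursors, pass through a short-lived newly formed stage, and then wrap axons in myelin, a stack of membrane layers that speeds conduction. The genes of the myelin sheath are switched on along this path, and transcription factors of the lineage such as Olig2, Sox10 and Myrf control many of them. In the mouse cortex myelination begins after birth and goes on into adulthood.

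The 9 genes have different places in the sheath. Mbp encodes myelin basic protein, which holds the cytoplasmic faces of compact myelin together, and Mobp another small basic protein of compact myelin. Cldn11 encodes the claudin of the tight junctions between myelin layers. Cnp encodes a cyclic nucleotide phosphodiesterase of the non-compacted, cytoplasm-filled parts of the sheath, Mag an adhesion protein of the layer that faces the axon, and Mog an immunoglobulin-like protein of the outer surface. Opalin encodes a membrane glycoprotein and Ermn (ermin) a cytoskeletal protein, both of late oligodendrocytes. Aspa encodes aspartoacylase, an enzyme that splits N-acetylaspartate and is no structural protein of myelin.

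Of the 9 genes, 8 had a promoter in the RefSeq table used (GRCm38.p6). The 250 bases before the start are shown for 3 genes whose level fell with age in mature oligodendrocytes (Mog, Mobp, Cldn11) and for the 1 that rose (Aspa), 5′ to 3′ on the strand of the gene. Capitals mark matches, on either strand, to ACAAAG, a core motif of SOX factors, or to CTGGNAC, a motif of Myrf. Neither motif overlaps the other in these windows.
Mog, chr17:37023399-37023648, minus strand: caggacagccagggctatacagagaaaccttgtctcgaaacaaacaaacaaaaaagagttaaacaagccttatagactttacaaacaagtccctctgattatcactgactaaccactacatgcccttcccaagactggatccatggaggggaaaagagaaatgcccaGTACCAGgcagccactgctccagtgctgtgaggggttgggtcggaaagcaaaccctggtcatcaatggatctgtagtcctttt
Mobp, chr9:120149492-120149741, plus strand: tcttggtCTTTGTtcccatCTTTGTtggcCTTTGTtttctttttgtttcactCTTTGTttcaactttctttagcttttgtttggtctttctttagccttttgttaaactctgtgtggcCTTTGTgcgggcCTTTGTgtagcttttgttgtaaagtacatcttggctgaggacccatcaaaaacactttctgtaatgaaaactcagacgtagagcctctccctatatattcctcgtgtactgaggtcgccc
Cldn11, chr3:31149670-31149919, plus strand: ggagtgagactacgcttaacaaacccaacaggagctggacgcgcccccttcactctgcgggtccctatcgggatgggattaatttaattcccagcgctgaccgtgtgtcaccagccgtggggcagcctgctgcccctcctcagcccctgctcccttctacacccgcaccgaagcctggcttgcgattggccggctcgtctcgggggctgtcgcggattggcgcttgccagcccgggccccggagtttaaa
Aspa, chr11:73324638-73324887, minus strand: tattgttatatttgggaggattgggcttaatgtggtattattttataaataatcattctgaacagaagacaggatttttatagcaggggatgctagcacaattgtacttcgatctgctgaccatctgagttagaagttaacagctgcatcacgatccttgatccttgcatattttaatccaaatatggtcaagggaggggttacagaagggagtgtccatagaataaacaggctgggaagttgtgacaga
The Mobp window holds 6 matches to ACAAAG, all as CTTTGT on the strand shown, and the Mog window holds 1 match to CTGGNAC, 83 bases before the start. The windows of Cldn11 and Aspa hold neither motif. Of 32851 promoters of the same length, of 27025 genes, 16.5% held ACAAAG and 16.1% held CTGGNAC, and the 3 windows shown of genes that fell have neither motif in common. Of the windows not shown, that of Cnp and the first and second of Mag hold both motifs, and that of Opalin holds ACAAAG. The third of Mag and that of Ermn hold neither. The genes of these windows did not pass as changed in the age comparison of mature oligodendrocytes below.

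In the NCBIM37 build (mm9), which is that of the deposited counts, the genes lie on 8 chromosomes. Mbp lies at chr18:82644538-82755029 on the plus strand, Mobp at chr9:120058860-120090602 on the plus strand and Cldn11 at chr3:31048868-31063246 on the plus strand. Cnp (chr11:100436218-100453043, plus strand) and Aspa (chr11:73118494-73140309, minus strand) share a chromosome. Mag lies at chr7:31684202-31699851, Mog at chr17:37147691-37160343, Opalin at chr19:41136964-41151603 and Ermn at chr2:57897524-57905275, all on the minus strand. At the 3′ end of Cnp 463 of its exonic bases lie within Dnajc7 on the opposite strand. Dnajc7 was counted at 158 to 253 CPM (the share of a gene in the UMIs summed over a class in a library, on the usual CPM scale) in mature oligodendrocytes at P60, and how reads of the overlap were assigned is not given in the sources used here. At the 3′ end of Ermn 748 of its exonic bases lie within Galnt5, on the opposite strand, which was at 0 CPM there.

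Cell classes and clusters are those deposited by the study, which used Aspa as its marker of oligodendrocytes, Bmp4 of newly formed oligodendrocytes and Pdgfra of precursors and clustered cells on variable genes of the same data, so differences between classes are described without a test. The 15 libraries held 35360 retained cells, 1055 to 4439 per library, with a median of 3426 to 11334.5 UMIs (counted molecules) per cell. At P60, 1578 cells were mature and 336 newly formed oligodendrocytes, and a library was used for a class where it had at least 10 of its cells. No pair of libraries shared more than 1.09% of the barcodes of the smaller library. Markers that are not among the 9 genes (Mal, Trf, Hapln2, Tmem88b) summed to 11323 to 19413 CPM in mature oligodendrocytes at P60 and were the highest marker list in 15 of 15 libraries. In the newly formed class its own markers summed to 4291 to 5761 CPM at P60, against 122 to 551 CPM of these mature markers, and were the highest list in 14 of 14 libraries. Precursors had their own list highest in 10 of 13 libraries and inhibitory neurons in 10 of 15, and the other classes in every library.

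Over all P60 libraries 8 of the 9 genes were highest in the mature oligodendrocytes, beyond the SDs of every other class. Mbp in the newly formed class lay within the spread of its mature level. Mbp was at 10571 ± 985 CPM (mean ± SD over libraries, n = 12) in mature and at 10129 ± 2673 CPM (n = 11) in newly formed oligodendrocytes, a difference within the spread. In the saline libraries alone the order of the means turned, with Mbp at 10772 CPM in newly formed (n = 5) and 10376 CPM in mature cells (n = 6). The mature level of Cnp was 10048 ± 864 CPM and its newly formed level 7367 ± 1315 CPM. Single libraries of Cnp overlapped, with the lowest mature one at 8525 CPM and the highest newly formed one at 9642 CPM. Counts are of transcript 3′ ends without a length term, so levels are compared between classes and not between genes.

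Mag and Cldn11, of the inner layer and of the tight junctions, stood between. Mag was at 5119 ± 586 CPM in mature and at 2294 ± 819 CPM in newly formed cells. Cldn11 was at 8070 ± 560 CPM and 3865 ± 1262 CPM. The other 5 genes were low in the newly formed class. Mog was at 3055 ± 265 CPM in mature and 254 ± 96.0 CPM in newly formed cells, and Mobp at 6727 ± 892 and 572 ± 731 CPM. Opalin was at 2598 ± 894 and 81.4 ± 132 CPM, Ermn at 2187 ± 503 and 22.1 ± 23.8 CPM, and Aspa at 1045 ± 225 and 8.20 ± 13.5 CPM. Without the first cocaine library of maintenance the newly formed mean of Mobp was 376 CPM and that of Opalin 46.2 CPM, and without the first cocaine library of 48 h that of Aspa was 5.01 CPM. For Mobp, Opalin, Ermn and Aspa the SD was as large as the mean or larger in newly formed cells.

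In precursors only Cnp, at 386 ± 75.5 CPM (n = 11), stood above every class outside the lineage. Mbp was at 155 ± 118 CPM in precursors, within the spread of astrocytes (160 CPM) and microglia (107 CPM). The means of the other 7 genes in precursors lay between 3.2 and 22 CPM. Outside the lineage Cnp was highest in astrocytes (210 ± 27.4 CPM), above microglia (76.1 ± 16 CPM), endothelial cells (44.1 CPM), inhibitory neurons (27.3 CPM) and excitatory neurons (17.2 CPM). Mag was at 42.7 ± 13 CPM in microglia.

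**Figure D1:**
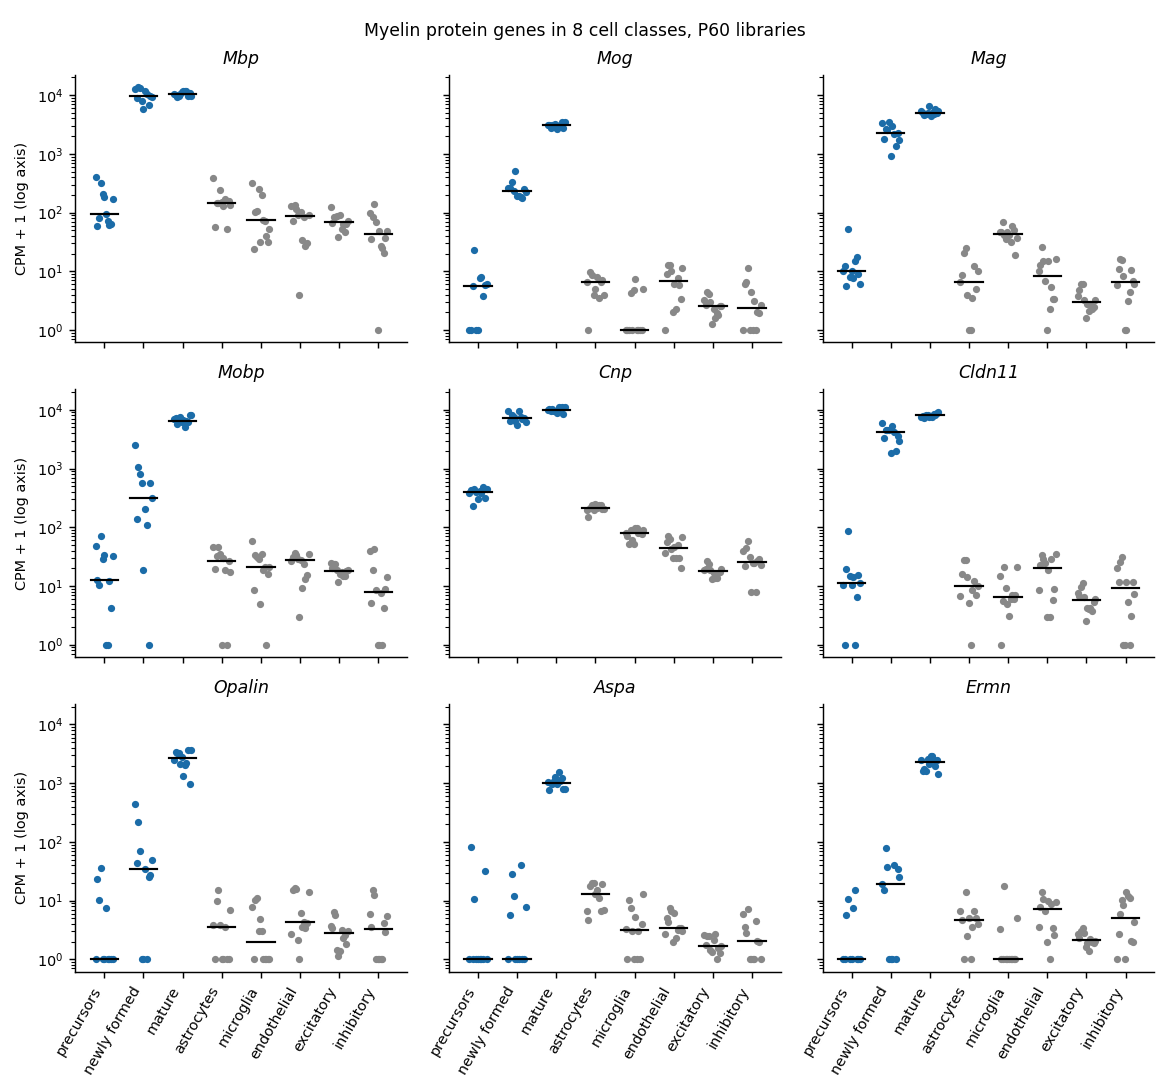
Level of each of the 9 genes in 8 cell classes at P60, in CPM plus 1 on a log axis, with a point per library and a black bar at the median (lineage classes in blue, others in grey). The mature and newly formed points of Mbp overlap at about the same level, whereas Aspa fell from 1045 CPM in mature to 8.20 CPM in newly formed oligodendrocytes on average.

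At equal depth the share of P60 cells with a UMI of the gene fell from mature to newly formed to precursor cells for each gene but Aspa. To compare classes of unequal depth, each cell was thinned to 2000 UMIs. Mbp was then seen in 99.9% of mature, 87.5% of newly formed and 14.5% of precursor cells, against 11.9% of excitatory neurons. Cnp was seen in 99.1% of newly formed cells and 51.1% of precursors, against 3.96% of excitatory neurons and 33.0% of astrocytes. Aspa was seen in 85.6% of mature cells and 1.49% of newly formed cells, against 1.83% of precursors and 0.16% of excitatory neurons. The Aspa share in newly formed cells thus lay no higher than in precursors, and the Mbp share in precursors close to that in neurons. Most Aspa UMIs of precursors came from the second cocaine libraries of 48 h (19 UMIs) and 15 days (7 UMIs). In thinned astrocytes the share was 3.08% for Aspa and 19.0% for Mbp, both above precursors.

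Without thinning, Mbp was seen in 48.2% of excitatory neurons (median 13622 UMIs per cell), 21.1% of precursors (3405 UMIs) and 91.4% of newly formed cells (5543.5 UMIs). Cnp was then seen in 67.1% of precursors and 21.2% of excitatory neurons, and Aspa in 93.9% of mature (3626 UMIs), 2.98% of newly formed and 1.21% of excitatory cells. The unthinned Mbp share of neurons, the deepest cells, thus fell from 48.2% to 11.9% at equal UMIs. Mag, seen in 0.70% of thinned excitatory neurons, was in 7.09% of microglia (10.0% unthinned, median 3213.5 UMIs).

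The newly formed level as a percent of the mature level of the same library puts the genes in an order that does not depend on their length. At P60 (n = 11 libraries) this was 97.8 ± 29.7% for Mbp, with a range of 50.0% to 153% and 3 libraries above the mature level. Cnp followed with 73.3 ± 13%, Cldn11 with 48.2 ± 17.6% and Mag with 46.2 ± 16.6%. Within libraries Mbp stood above Cnp in 10 of 11, by 24.5 ± 24.8 percentage points, and Cldn11 above Mag in 9 of 11, by 2.04 ± 7.61 points, mean differences within 1 SD. Cnp stood above Cldn11 and Mag above Mobp in 11 of 11 libraries.

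The late group was far lower. Mog stood at 8.51 ± 3.55% and Mobp at 8.51 ± 10.9% of the mature level. Opalin was at 3.09 ± 5.19%, Ermn at 1.17 ± 1.32% and Aspa at 0.83 ± 1.29%. Mog stood above Opalin in 10 of 11 libraries, whereas Opalin exceeded Ermn in 6 and Ermn exceeded Aspa in 6, with 2 and 4 ties. Single libraries weighed on these means: without the first cocaine library of maintenance (17.7%) Opalin was at 1.63 ± 1.99%, and without the first cocaine library of 48 h (3.75%) Aspa was at 0.54 ± 0.89% (n = 10). Mag and Mog, both adhesion-type surface proteins, were thus separate by more than their SDs. At P21 the 3 libraries had Mbp at 97.6%, 114% and 164% of the mature level and Mag at 36.3 ± 17.1%.

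**Figure D2:**
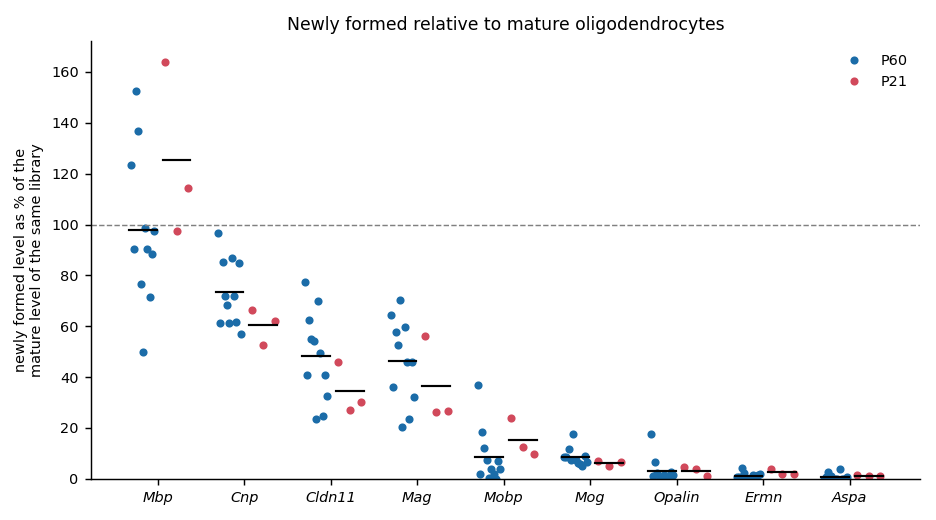
Level in newly formed oligodendrocytes as a percent of that in mature oligodendrocytes of the same library, for each gene, with a point per library (P60 blue, P21 red), bars at the mean and a dashed line at 100%. Mbp lies around the line and Cnp, Cldn11 and Mag between it and 0. Mog, Mobp, Opalin, Ermn and Aspa have the lowest means at P60, with single points of Mobp up to 36.7%.

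The newly formed class was not uniform in these genes. Among its 5 clusters of at least 30 cells at P60, NF Oligo_1 (46 cells) had Mbp at 23811 CPM, Cldn11 at 10295 CPM, Mag at 5767 CPM and Mobp at 2962 CPM, all but Mobp above the mean of mature cells. NF Oligo_2 had Mbp at 2369 CPM and Mag at 483 CPM. NF Oligo_3 (32 cells) had Cldn11 at 778 CPM and Mobp at 14.7 CPM, no higher than in excitatory neurons (17.6 ± 4.04 CPM). The highest cluster exceeded the lowest 2.56-fold for Cnp, 10.1-fold for Mbp, 11.9-fold for Mag and 13.2-fold for Cldn11. The fold was 7.75 for Mog, 12.1 for Ermn, 46.1 for Opalin and 202 for Mobp, from lowest levels of 44.0, 7.34, 7.34 and 14.7 CPM. These lowest levels were all of NF Oligo_3, with 32 cells at a median of 4537.5 UMIs. They rest on very few UMIs of the gene, so the size of these folds is uncertain. Clusters were made from the same data, so these folds are a description with no test.

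Mature oligodendrocytes fell into 13 clusters of at least 30 cells at P60, and the 9 genes varied unevenly between them. Mbp ranged 1.3-fold, from 9219 CPM in Oligo_13 to 11984 CPM in Oligo_1. Aspa ranged 1.66-fold, Cnp 1.69-fold, Cldn11 1.86-fold, Ermn 1.92-fold, Mobp 1.96-fold, Mog 2.01-fold and Mag 2.03-fold. Opalin ranged 5.42-fold, from 933 CPM in Oligo_2 to 5059 CPM in Oligo_1.

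Oligo_1 (172 cells) was the highest cluster for 7 of the genes and the lowest for the other two, Aspa (721 CPM) and Ermn (1531 CPM). Aspa was highest in Oligo_11 (1194 CPM) and Ermn in Oligo_8 (2937 CPM). Oligo_1 was also deep, with a median of 5202 UMIs per cell, and the part of depth in this pattern was not tested. Across the 13 clusters, whose cells come from 10 to 12 of the same libraries, log2 levels of Cnp and Cldn11 had a Pearson's r of 0.98, Mog and Cldn11 0.95, and Mag and Mobp 0.95. The r of Aspa was -0.91 with Mag and -0.88 with Mobp, that of Opalin with Ermn was -0.83, and that of Aspa with Ermn was 0.71. Oligo_1 and Oligo_9 stood apart, with the highest Mag (7656 and 5797 CPM) and the lowest Aspa (721 and 920 CPM). The next cluster for both was Oligo_12, at 4882 and 968 CPM. The r without Oligo_1 and Oligo_9 was not computed, so these r do not show a graded relation over the clusters. Over the 12 P60 libraries r was 0.04 for Cnp and Cldn11, 0.28 for Mog and Cldn11 and -0.005 for Mag and Mobp. Between libraries the r of Aspa was 0.30 with Mag and -0.81 with Mobp. That of Opalin with Ermn was -0.78 there, and that of Aspa with Ermn 0.48.

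**Figure D3:**
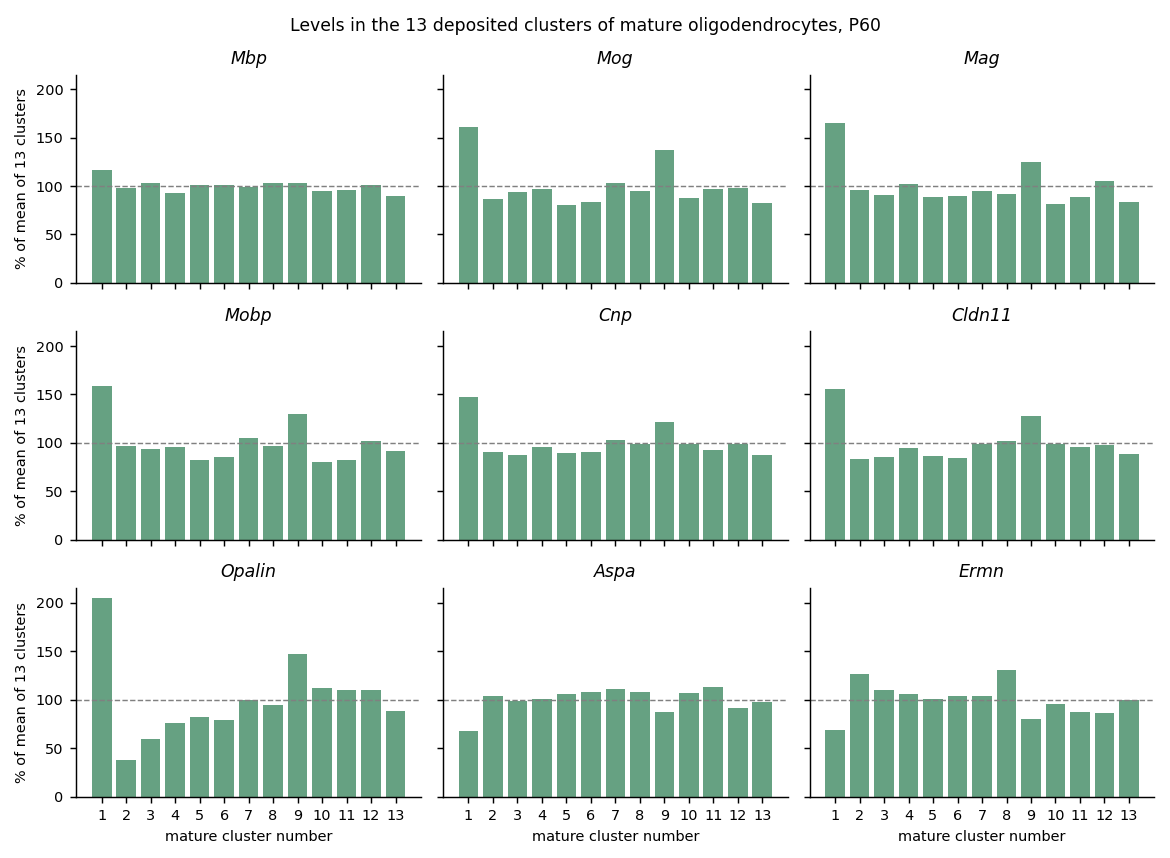
Level of each gene in the 13 mature oligodendrocyte clusters at P60, as a percent of the mean over the clusters. Oligo_1 is highest for 7 genes and lowest for Aspa and Ermn, and Opalin has the widest range, 5.42-fold.

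Between the 12 P60 libraries the mature level was steady for most of the genes. The coefficient of variation was 6.94% for Cldn11, 8.6% for Cnp, 8.66% for Mog, 9.32% for Mbp, 11.5% for Mag and 13.3% for Mobp. It was larger for Aspa (21.5%), Ermn (23%) and Opalin (34.4%), whose level ran from 980 to 3683 CPM. The 9 genes together held 4.94 ± 0.19% of the UMIs of mature, 2.46 ± 0.62% of newly formed, 0.062% of precursor and 0.012% of excitatory cells.

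Over 42 points (3 lineage classes in each library with enough cells), the genes whose log2 level was most like the mean of the 9 were Tmem88b (r = 0.984), Josd2 (0.983), Sept4 (0.976), Trf (0.974) and Lpar1 (0.967), out of 6130 genes. Among the 9, Mog was most like the mean of the other 8 (r = 0.988), followed by Mobp (0.941), Mag (0.929), Cldn11 (0.918) and Cnp (0.907). Opalin (0.894), Ermn (0.867), Mbp (0.852) and Aspa (0.777) were least alike. The points share classes, libraries and depth, and they span the step between stages.

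The age comparison asks which of the genes differ between the juvenile and the adult PFC within a class. It set the 3 P21 libraries against the 6 saline P60 libraries, with changes given as P60 relative to P21. In the study's account catheters were implanted at P60, and tissue was taken after self-administration and withdrawal. By that account the adults were older than P60, and the 3 saline time points pooled here differ in age. No library holds both ages, so age and the batch of preparation cannot be told apart, and the adults had also undergone saline self-administration. In bulk sums of a class, fewer transcripts per cell and a larger share of other cells within the class cannot be told apart. A gene counted as called where edgeR's quasi-likelihood test gave a p below 0.05 after Benjamini-Hochberg adjustment and the change was above 1.5-fold.

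In mature oligodendrocytes 5 of the 9 genes were called: Mbp, Mog, Mobp and Cldn11 fell with age, and Aspa rose. Of all 5188 genes tested 16.5% were called, 9.44% as lower and 7.05% as higher at P60. Mag, Opalin, Cnp and Ermn were not called. The 9 genes together held 6.82 ± 1.13% of UMIs at P21 (n = 3) and 4.92 ± 0.22% in the saline P60 libraries (n = 6).

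Cldn11 was at 10808, 15747 and 13273 CPM in the P21 libraries, and at 7196 (lowest), 7878 (median) and 8273 (highest) CPM in the saline P60 libraries. The groups did not overlap, and the log2 change was -0.84 (SE 0.14, edgeR adjusted p = 0.00056). Mobp was at 9411, 11068 and 9288 CPM at P21 and at 5136, 6209 and 7453 CPM at P60, again without overlap. Its log2 change was -0.75 (SE 0.14, edgeR adjusted p = 0.0014). Mog was at 4230, 6232 and 4724 CPM at P21 and at 2797, 3077 and 3497 CPM at P60. These groups also stood apart, with a log2 change of -0.79 (SE 0.15, edgeR adjusted p = 0.0015).

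Mbp was at 11610, 21609 and 18521 CPM at P21 and at 9115, 10143 and 11944 CPM at P60. The first P21 library lay among the adult ones while the other 2 were far above, and the log2 change was -0.81 (SE 0.17, edgeR adjusted p = 0.0034). Over 18 alternatives the adjusted p of Mbp lay between 8.44e-07 and 0.0409, that of Mog between 5.91e-06 and 0.0181, that of Mobp between 1.13e-05 and 0.0127 and that of Cldn11 between 3.58e-07 and 0.00617. Without P21 replicate 2 the changes of Mbp and Mog were -0.56 each, below 1.5-fold, and 3 of the 9 genes were called.

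Aspa went the other way. It was at 608, 853 and 581 CPM at P21 and at 982, 1159 and 1562 CPM at P60, with no overlap and a log2 change of 0.72 (SE 0.19, edgeR adjusted p = 0.0117). Over 18 alternative settings its adjusted p lay between 0.000188 and 0.0898, and the call was lost with all 12 P60 libraries (log2 change 0.56) and without P21 replicate 3 (0.60). Ermn was at 1624, 1459 and 1443 CPM at P21 and at 1599, 2030 and 2863 CPM at P60, groups that overlapped (log2 change 0.43, SE 0.18, edgeR adjusted p = 0.109).

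Cnp was at 12033, 13873 and 11203 CPM at P21 and at 9385, 10077 and 11153 CPM at P60. These groups were narrowly apart, with a log2 change of -0.35 (SE 0.13, edgeR adjusted p = 0.080). Mag, at 4896, 5862 and 4694 CPM at P21 and 4587, 4979 and 6554 CPM at P60, had a log2 change of -0.04 (SE 0.15, edgeR adjusted p = 0.903). Opalin, at 2570, 3535 and 2840 CPM at P21 and 2079, 3049 and 3607 CPM at P60, had one of -0.14 (SE 0.19, edgeR adjusted p = 0.669). For both the P21 values lay within the adult range or close to it.

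Each cell was also given the same weight, and libraries were compared by exact permutation over 84 splits (two-sided, the smaller tail doubled). The unadjusted p was 0.0238 for Mog, Mobp, Cnp, Cldn11 and Aspa and 0.0476 for Mbp and Ermn. A p of 0.0238 is the smallest this test can give here, so genes at that value are not ranked by it. For Opalin the exact permutation p was 0.5 and for Mag 0.952. Among cells whose deposited class and cluster names match, 5 of the 9 genes were called, against 17.8% of 4888 genes, and Cnp had a log2 change of -0.43 (edgeR adjusted p = 0.0141), below 1.5-fold. Over 18 alternatives the adjusted p of Cnp lay between 0.0141 and 0.376.

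**Figure D4:**
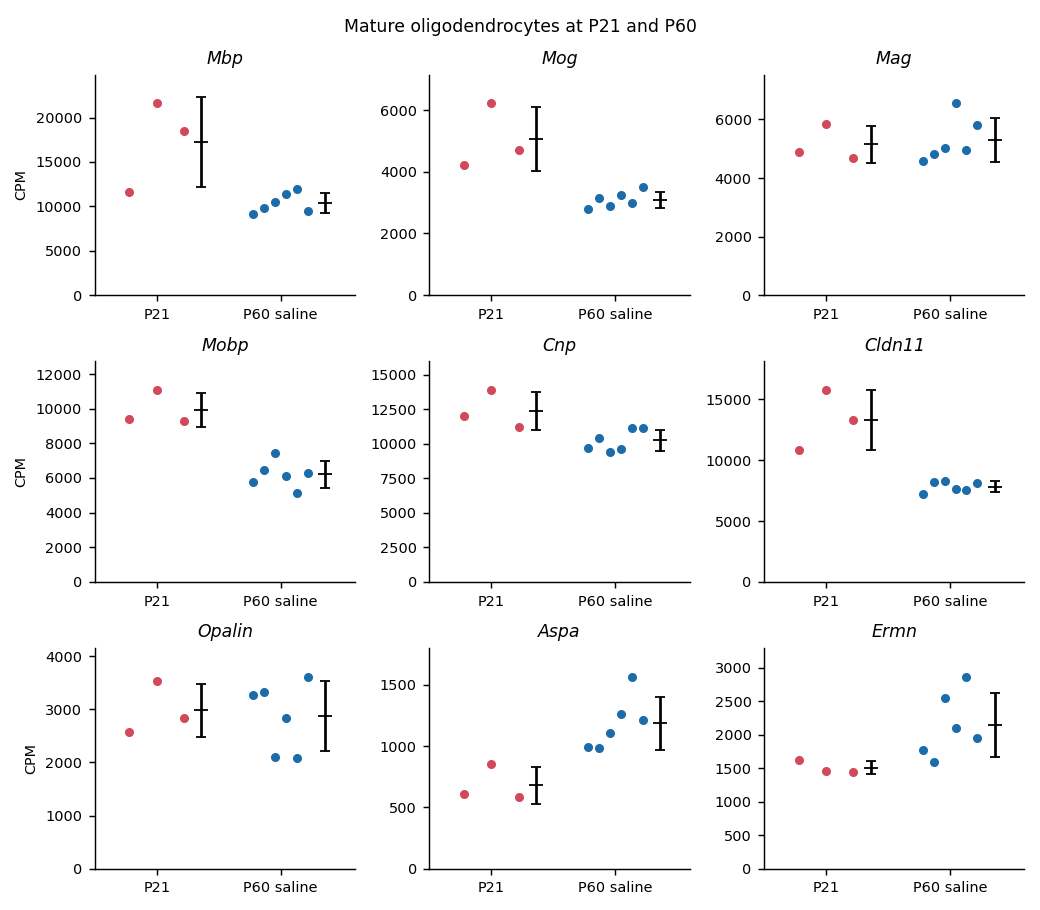
Level of the 9 genes in mature oligodendrocytes in CPM, with a point for each of the 3 P21 and 6 saline P60 libraries and the mean ± SD. Mog, Mobp and Cldn11 are higher in all P21 libraries, Aspa is lower in all of them, and the first P21 library of Mbp lies among the adult points.

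Other values of the same class were set beside these changes. The 4 mature markers outside the 9 genes summed to 11679 to 13862 CPM at P21 and 12207 to 19413 CPM in saline P60 libraries, ranges that overlap. Newly formed markers summed to 233 to 274 CPM against 116 to 203 CPM, and excitatory markers to 88.5 to 565 CPM against 105 to 716 CPM. The median UMIs per mature cell were 4178 to 5744 at P21 and 2690 to 4691 at P60. The part of these in the changes above was not tested. Mature oligodendrocytes made up 4.63 ± 2.82% of retained cells at P21 and 7.2 ± 5.03% in saline P60 libraries (exact permutation p = 0.524, two-sided). Newly formed cells made up 52.3 ± 13.8% of the cells of the 3 lineage classes at P21 and 10.1 ± 8.06% in saline P60 libraries (exact permutation p = 0.0238, two-sided, the smallest this test can give here). This shift went with the age changes of the genes, and its part in them was not tested. The cells of the 3 classes at P21 include 51 precursors, of which 29 had a cluster name of another class.

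Other genes of the sheath also changed in mature cells. Of 19 other myelin genes tested 8 fell and 1 rose, beside 9.44% of all genes that fell and 7.05% that rose, with a median log2 change of -0.36 against -0.01 over all genes. Ugt8a, the enzyme that makes the galactolipid galactosylceramide, was at 1562 ± 294 CPM at P21 and 356 ± 88.3 CPM at P60 (log2 change -2.19, edgeR adjusted p = 1.62e-06). Gal3st1, which adds sulfate to that lipid, fell by 1.5 on the log2 scale, from 117 to 42.8 CPM. These lists, like the 9 genes, were chosen with earlier results of these data known.

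The counts of the lists below stand beside the same 9.44% of all genes called as lower and 7.05% as higher, and counts of 1 or 2 in these short lists are few to compare with it. Of 12 cholesterol synthesis genes tested 11 fell and none rose, with a median log2 change of -1.81. Idi1, which isomerises isopentenyl diphosphate in this pathway, was at 232 CPM at P21 and 59.6 CPM at P60 (log2 change -2.06, edgeR adjusted p = 8.71e-05). Of 8 lineage transcription factors 2 fell, Olig1 (-0.81) and Olig2 (-0.74), with a median of -0.15. Of 6 newly formed genes 2 fell, Gpr17 (-1.71), a receptor of the newly formed stage, and Enpp6 (-0.91), with a median of -0.09. Of 5 node and paranode genes Cntn2, an adhesion molecule of the juxtaparanode, rose (1.01, from 115 to 253 CPM) and Cntn1 fell (-1.44), with a median of -0.28.

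In newly formed oligodendrocytes 1 of the 8 genes tested was called, Mbp, as lower at P60, against 3.88% of 4748 genes. It was at 19049, 21092 and 21167 CPM at P21 and at 6783, 8027, 11768, 13381 and 13903 CPM in the 5 saline P60 libraries with enough cells. All P21 libraries were above all adult ones, and the log2 change was -0.90 (SE 0.20, edgeR adjusted p = 0.0138). Mobp had a log2 change of -1.42 (edgeR adjusted p = 0.459) and Mag of 0.49 (edgeR adjusted p = 0.469), neither called. Mobp was at 2253, 1377 and 910 CPM at P21, and among the adult libraries it ran from 0 to 1059 CPM, so that 1 P21 library lay in the adult range. Cnp (log2 change 0.07, edgeR adjusted p = 0.861), Cldn11 (-0.08, edgeR adjusted p = 0.905) and Mog (-0.11, edgeR adjusted p = 0.858) had small estimates. Cldn11 was at 4968, 4265 and 3995 CPM at P21 and at 2014, 4477 and 5272 CPM (lowest, median and highest) at P60, so the groups overlapped, unlike in mature cells. The difference of the age change between the classes was not tested. Among cells with matching names Mbp changed by -1.15 (edgeR adjusted p = 0.0097, where 1.38% of genes were called as lower). The call was lost with a minimum of 30 cells per library (log2 change -0.54) and without P21 replicate 2. Over 17 alternatives, DESeq2 among them, the adjusted p of edgeR or DESeq2 lay between 3.68e-10 and 0.0597. With each cell weighted alike the exact permutation p of Mbp was 0.0357, the smallest this two-sided test can give with these libraries.

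In precursors 2 of the genes could be tested and 1, Cnp, was called as higher at P60 (log2 change 1.25, edgeR adjusted p = 0.0148), against 9.85% of 4935 genes. Cnp was at 144 and 193 CPM in the 2 P21 libraries used and at 226 to 481 CPM in 5 saline P60 libraries. The groups did not overlap, but in the P21 precursors with matching names Cnp was at 293 CPM (14 cells), 1103 CPM (5 cells) and 344 CPM (3 cells), within or above the adult range. With each cell weighted alike the log2 change was 0.21. The call was lost without either P21 library. Over 14 alternatives, DESeq2 among them, the adjusted p of edgeR or DESeq2 lay between 0.000272 and 0.163. The P21 precursors numbered 51 cells, of which 29 had a cluster name of another class. Their excitatory markers summed to 4111 to 5501 CPM, above the 221 to 820 CPM of their own markers, so these cells go against their label.

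In astrocytes and microglia the counts of called genes depended on P21 cells whose class and cluster names disagree. At P60 such cells numbered 0 to 19 per class, and 0 of them had the name of an oligodendrocyte cluster. In astrocytes 8 of 9 genes were called as lower at P60, against 4.05% of genes, for example Cldn11 (log2 change -5.56), Mog (-5.00) and Mbp (-4.12). Mbp was at 1210, 2291 and 5125 CPM in P21 astrocytes and at 50.7 to 241 CPM in saline P60 astrocytes. Of 405 P21 astrocytes 99 (24.4%) had a cluster name of another class, and the 20 with the name of an oligodendrocyte cluster held 85.3% of the UMIs of the 9 genes. With matching names only, edgeR called 0 of 4 genes tested, against 0.794% of genes, and 2 had an unadjusted p below 0.05 (Mbp, log2 change -1.99, and Cnp, -0.44), as had 757 of all 5670 genes. DESeq2 was not run on these cells. Mbp then reached 423 CPM in P21 replicate 2 (41 cells) and 1293 CPM in P21 replicate 3 (51 cells). Most of these cells, 214 of 306, were of P21 replicate 1. Pooled over libraries and thinned to equal depth, P21 astrocytes with matching names had a mean of 0.476 Mbp UMIs per cell, against 0.392 at P60.

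Microglia gave a similar account. All 6 genes tested were called as lower, against 19.4% of genes, with Cldn11 at a log2 change of -5.68. Of 329 P21 microglia 147 (44.7%) had a cluster name of another class, and 23 with that of an oligodendrocyte cluster held 91.3% of the UMIs of the 9 genes. With matching names 1 of 4 genes was called, Cldn11 (log2 change -3.69, edgeR adjusted p = 0.0192), against 0.701% of genes. Mbp was at 569, 380 and 78.9 CPM in these P21 microglia.

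In excitatory neurons 2 of 9 genes were called as lower at P60, against 10.1% of genes: Mbp (log2 change -0.93, edgeR adjusted p = 0.018) and Cldn11 (-1.59, edgeR adjusted p = 0.0312). Mbp was at 103 to 148 CPM at P21 and 37.7 to 86.0 CPM at P60. With matching names 1 of 9, Mbp, was called as lower, against 10.0% of genes. Both calls were lost without P21 replicate 1 or without P21 replicate 2, and that of Cldn11 also without either saline library of 48 h. In inhibitory neurons 0 of 6 were called by edgeR, against 14.1% of genes, with 0 below an unadjusted p of 0.05 (33.4% of all genes) and 0 called by DESeq2. In endothelial cells 0 of 9 were called by edgeR, against 13.3% of genes, with 3 below an unadjusted p of 0.05 (Mog, Mobp and Cnp, all lower at P60), close to the 32.2% of all genes, and 1 called by DESeq2. Of 2047 P21 endothelial cells 7 had the name of an oligodendrocyte cluster and held 39.1% of the UMIs of the 9 genes, and with matching names 0 of the 8 genes tested were called by edgeR or below an unadjusted p of 0.05, whereas 3046 of all 10403 genes were below 0.05.

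The Mbp level of excitatory neurons was compared with the share of UMIs that came from mature oligodendrocytes in the library, which ran from 1.00% to 7.81% at P60. Over 12 libraries Pearson's r was 0.72 (permutation p = 0.0139) and Spearman's rho 0.71 (permutation p = 0.0115). Mbp in excitatory neurons was the only level set against this share. Without the 2 libraries farthest from the median share, the first of cocaine and the first of saline at maintenance, r was 0.53 (permutation p = 0.108), a p that no longer passed 0.05, with r still above 0. Leaving out 1 library at a time gave r of 0.58 to 0.80. Within the time points (n = 4 each, no test) r was 0.82 at maintenance, 0.00424 at 48 h and 0.74 at 15 days.

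The second question of the design was whether cocaine changes these genes at the end of maintenance, after 48 h or after 15 days of withdrawal. In mature oligodendrocytes 0 of the 9 genes were called by edgeR at any of the times, against 0% of 6434 genes at maintenance, 0% at 48 h and 0.264% at 15 days, and DESeq2 called 0 of the 9 as well. The number with an unadjusted p below 0.05 was 0, 2 and 2, beside 3.25%, 5.61% and 5.91% of all genes. For the mean of the 3 time points 0 of 9 were called against 0.0466% of genes, with 2 below an unadjusted p of 0.05 (5.89% of all genes), and the interaction of cocaine with time gave 0 against 0%, with 0 below 0.05 (4.04% of all genes). Over the 4 classes fitted for cocaine, 7 of 31 such interaction tests of the genes had an unadjusted p below 0.05, 6 of 9 in excitatory neurons (5.31% of all genes) and 1 of 7 in newly formed oligodendrocytes (Mog, beside 4.49% of all genes), and 0 passed after adjustment.

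Aspa had the smallest p of the 9 genes. At maintenance it was at 1109 and 1261 CPM in saline and 965 and 1031 CPM in cocaine libraries. After 48 h it was at 1208 and 1562 CPM in saline and 790 and 1069 CPM in cocaine libraries. After 15 days it was at 982 and 993 CPM in saline and 779 and 795 CPM in cocaine libraries. The cocaine libraries were thus below the saline libraries at each time, by a mean log2 change of -0.38 (SE 0.09, edgeR adjusted p = 0.147, unadjusted 0.000159), which is under 1.5-fold. Over 18 alternatives, DESeq2 among them, the adjusted p of edgeR or DESeq2 for this mean change lay between 0.0164 and 1.00.

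Mobp leaned the other way during withdrawal. It was at 6118 and 7453 CPM in saline and 6619 and 6881 CPM in cocaine libraries at maintenance, where the groups overlapped. After 48 h the saline libraries were at 5136 and 6299 CPM and the cocaine libraries at 6508 and 8101 CPM, and after 15 days they were at 5740 and 6477 CPM and at 7328 and 8059 CPM. The mean log2 change of 0.23 had an edgeR adjusted p of 0.619. Opalin, the most variable of the 9, was at 2079 and 3607 CPM in saline and 980 and 2172 CPM in cocaine libraries after 48 h, where the groups overlapped. Its log2 changes were -0.33, -0.84 and 0.09 at the 3 times, with none called.

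The other 6 genes differed little in the mean of the 3 times, in which opposite signs at single times cancel. For the mean of the 3 times the log2 change was 0.06 for Mbp (SE 0.08), -0.03 for Mog (SE 0.08), -0.08 for Mag (SE 0.08), -0.05 for Cnp (SE 0.08), 0.09 for Cldn11 (SE 0.08) and 0.04 for Ermn (SE 0.09). All 6 estimates lay within 0.1 of 0. Mag was lower in the cocaine libraries after 48 h (4705 and 4871 CPM against 4942 and 5814 CPM in saline). After 15 days it was higher in them (5439 and 4950 CPM against 4587 and 4830 CPM in saline), and it was not called at either time. Cnp after 48 h was at 11125 and 11153 CPM in saline and at 8525 and 10598 CPM in cocaine libraries, groups that did not overlap (log2 change -0.23, SE 0.14, unadjusted p = 0.0997). Cldn11 after 48 h was at 7554 and 8158 CPM in saline and at 8528 and 8838 CPM in cocaine libraries, again without overlap (log2 change 0.14, SE 0.14, unadjusted p = 0.323). With 2 libraries a group, values often stand apart without a true difference. The share of all genes that did so was not computed, which holds for Aspa and Mobp above as well. Ermn was lower in all 4 libraries of 15 days (1445 to 1778 CPM) than in those of the earlier times (1958 to 2892 CPM), whether saline or cocaine. This difference between times was seen in the values and not tested. The libraries of 15 days were also deeper, with a median of 4330 to 4750 UMIs per mature cell against 2690 to 3980 at the earlier times. The part of depth was not tested.

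**Figure D5:**
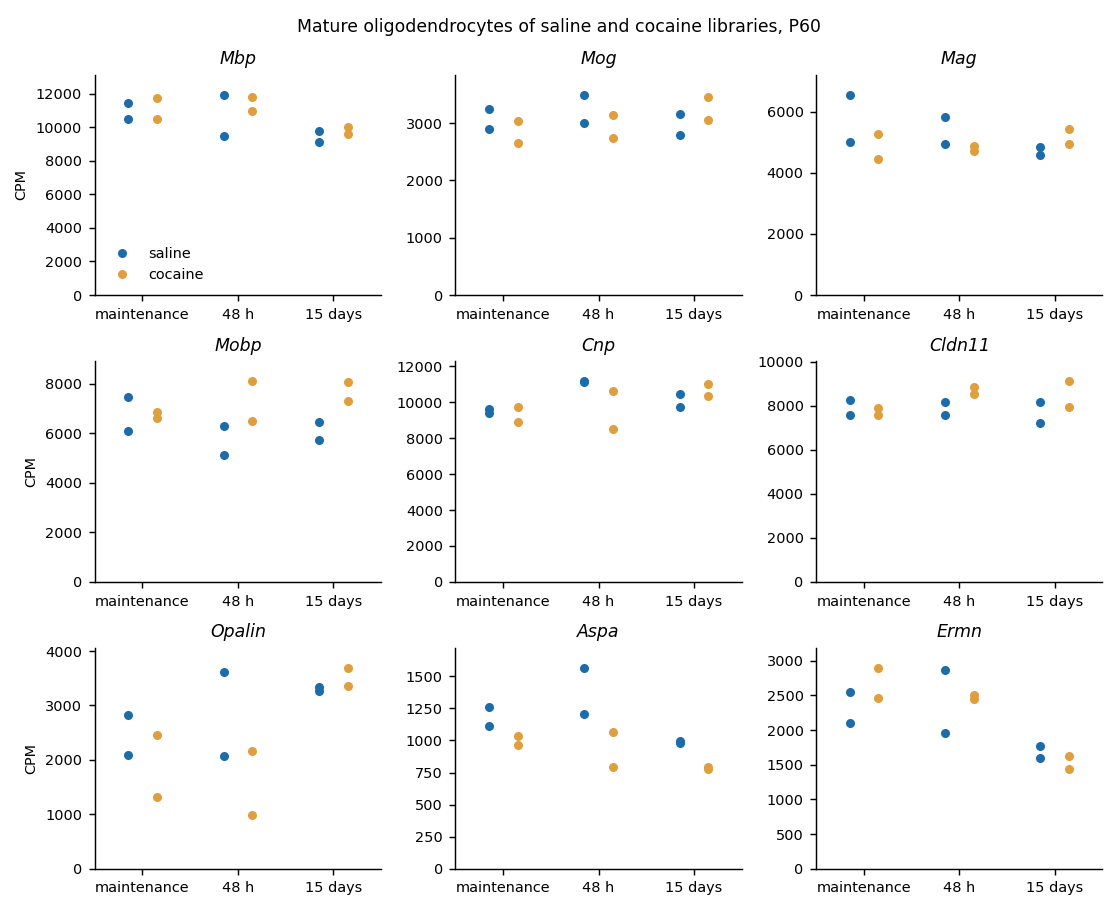
Level of the 9 genes in mature oligodendrocytes in CPM at maintenance, 48 h and 15 days of withdrawal, with 2 libraries per group (saline blue, cocaine orange). Aspa is lower in the cocaine libraries at each time, and Opalin spreads widest, from 980 to 3683 CPM.

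In newly formed oligodendrocytes 0 of the 7 genes tested were called by edgeR or DESeq2 at any time, against 0.0279% of genes at maintenance, 0% at 48 h and 0.0558% at 15 days, with 1, 0 and 0 of the 7 below an unadjusted p of 0.05 (5.49%, 3.57% and 4.80% of all genes). In precursors 0 of 6 were called, against 0%, 0.0338% and 0.0676%, with 0, 1 and 1 below 0.05 (4.23%, 3.06% and 4.38% of all genes). Saline maintenance had 1 library for both classes, which is assumed to vary like the other groups. In excitatory neurons 0 were called, against 0%, 0% and 0.714%, with 3, 1 and 7 of the 9 below an unadjusted p of 0.05, a level that 6.61%, 4.91% and 6.88% of all genes passed. At 15 days all 7 of these were lower in cocaine libraries, with edgeR adjusted p between 0.157 and 0.636. The share of UMIs in mature oligodendrocytes was also lower in these cocaine libraries (1.3% and 1.97%) than in the saline libraries (2.51% and 2.43%) of 15 days, and its part in the 7 values was not tested. A p that misses the threshold with 2 libraries a group does not show that levels are alike.

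None of the other lists had a called gene in mature oligodendrocytes under cocaine. For the mean of the 3 times the median log2 change of 20 other myelin genes was -0.07, against 0.00 over all genes.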

How the data were processed

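Single cell libraries of the PFC were prepared with the droplet method by the authors, who aligned reads to mm9 with Cell Ranger and filtered and clustered cells with Seurat (2.1.0 per the labels). The deposited values are raw UMI counts per gene and cell, with no normalization, and a second deposited table lists class, cluster and the fraction of mitochondrial UMIs. The authors gave P21 cells their names by likeness to P60 clusters. Mitochondrial and ribosomal protein genes (8.86% to 11.1% of UMIs) were left out, and 25979 genes stayed. Class sums of UMIs were made in each library with at least 10 cells of the class, and CPM are shares of these sums on the usual scale, with mean and SD over libraries.

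Sums were tested in R 4.3.3 with edgeR 4.0.16 (filterByExpr, TMM factors, robust quasi-likelihood test), with Benjamini-Hochberg adjustment over all genes tested. The cocaine contrasts came from 1 model of the 12 P60 libraries, in which each group has its mean. Replicates are pooled mice. How the P21 mice were divided over the 3 libraries is not given in the sources used here, so that p-values may in part measure technical spread. Shares and correlations were computed with scipy 1.17.1, pandas 2.3.3 and numpy 2.4.6 in python 3.11.15, with 100000 resamples for the correlation. The scripts were tested on simulated data. Alternatives were DESeq2 1.42.0, its size factors (RLE), TMM without the 9 genes, no filter, a minimum of 30 cells, no fold threshold, all 12 P60 libraries, P21 libraries 2 and 3 summed, equal weight per cell and leaving out each library. Those added after seeing the data were cells with matching names, the Mbp relation within time points and without each library, and newly formed levels and percents without each library.

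The members and gene lists were chosen with earlier results of these data known. Named genes are the 9 members and, from each list, the 2 called genes with the largest absolute change in the age comparison of mature oligodendrocytes. Lists hold other myelin genes, lineage transcription factors, newly formed genes, node and paranode genes, and cholesterol synthesis genes. Some genes of the lists are not reported here, and the sums of mature markers leave them out. Classes rest on clustering of the same data, doublets were removed by the authors by gene number and by hand after clustering, and free RNA in droplets was not removed from the counts.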

Additional observations from a re-analysis of the deposited data

Results flagged for a closer look

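Cldn11 in newly formed oligodendrocytes had 1 library far from the others. The second saline library after 48 h of withdrawal was at 2013.68 CPM, and the nearest of the other saline P60 libraries was at 4477.3 CPM. This gap was 0.756 of the range of the 5 libraries, above Dixon's critical value of 0.71. Of 19 sets of libraries examined in this way 1 had such a library, and chance gives about 1 in 20. The flagged library (26 cells) was also the lowest of the 5 for Mbp (6783 CPM), Mog (179 CPM), Mag (1361 CPM) and Mobp (0 CPM). It was not the lowest for Cnp or Opalin, and Aspa and Ermn were at 0 CPM in it and in others. The second cocaine library of maintenance, outside this set, had Cldn11 lower still, at 1865 CPM. Of 31 tests of whether the cocaine difference of a gene changes between time points, 7 had an unadjusted p below 0.05 and 0 passed after adjustment. Of these 7, 6 were in excitatory neurons, where 5.31% of all genes were below 0.05.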

How the results depend on the processing

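In mature oligodendrocytes 5 genes were called for age, and 3 to 5 when each library was left out in turn. In newly formed cells 1 was called, 0 with a minimum of 30 cells and 0 to 1 when a library was left out, which was also the range in precursors. In excitatory neurons 2 were called, against 1 without a filter, 5 with all 12 P60 libraries, 1 with P21 libraries 2 and 3 summed, 1 with matching names, and 0 to 3 when a library was left out. Inhibitory neurons had 0 to 1 when a library was left out. Astrocytes had 0 and microglia 1 with matching names. Endothelial cells had 1 with DESeq2 and 4 with all 12 P60 libraries. For cocaine, newly formed cells at 15 days had 1 with a minimum of 30 cells, and excitatory neurons had 1 at maintenance and 3 at 15 days without a filter, and 0 to 1 at both times when a library was left out. The relation of Mbp in neurons was 0.53 without the 2 farthest libraries, 0.74, 0.00424 and 0.82 within 15 days, 48 h and maintenance, and 0.58 to 0.80 when 1 library was left out.

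Direction turned for Mag with age in mature cells (0.029 with P21 libraries 2 and 3 summed, and -0.13 to 0.11 when a library was left out, highest without P21 replicate 2), Opalin (-0.23 to 0.053, highest without P21 replicate 2), Cldn11 in astrocytes (0.072 with matching names), and for cocaine at maintenance Mobp (-0.13 to 0.23, lowest without saline replicate 2) and Opalin (-0.84 to 0.038, highest without cocaine replicate 2). The cause was not tested.

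Where mitochondrial and ribosomal genes stayed in the total, the mature levels of 4 genes moved by over 1 SD (Mbp 9468, Mog 2738, Cnp 9006 and Cldn11 7229 CPM). No paired analysis was possible because the numbers in the titles only name the libraries. Precursors at P21 and newly formed cells at P60 were few, and 0 UMIs of a gene allow up to 3, so that low levels there are uncertain. Intervals of counting error were not added to the spread between libraries.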
